A study of Gallus gallus with 9 samples.

Results

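The untreated amacrine cell layer of the chick retina was described from the 3 control arrays among the 9 arrays of a study of optical defocus. All 13008 genes that could be named were ranked by their mean log2 signal on these 3 arrays, and levels are not compared with the lens groups, whose arrays are used only to set their spread beside that of the control arrays. The control chicks wore no lens and were matched in age to the treated birds, but their age and strain are not given in the sources used here. In each of the other groups, also of 3 arrays, 1 eye per chick had carried a lens for 24 h, of -7 D in the minus lens group and 7 D in the plus lens group. Lights were on for 12 h daily at 500 lux in all groups. Laser capture took the layer out of 10 µm sections, and 10 to 100 ng of total RNA from each sample went through 2-cycle amplification before hybridisation to Affymetrix Chicken Genome arrays. The labels speak of 3 separately prepared samples for each condition and do not say which chick gave which sample, so the spread between arrays may be technical in part.

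Amacrine cells are interneurons whose cell bodies lie along the inner edge of the inner nuclear layer of the retina and whose processes contact bipolar and ganglion cells in the inner plexiform layer. Most release GABA or glycine, and subtypes also carry acetylcholine, dopamine or neuropeptides such as enkephalin, substance P, glucagon and vasoactive intestinal peptide. The cell bodies of bipolar cells, horizontal cells and Müller glia share the inner nuclear layer, and Müller fibres cross the whole retina.

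Each gene was read from its brightest probe set, and signal is given as the log2 of the deposited intensity, mean ± SD over the 3 arrays (n = 3) where an error is shown. A probe set's signal depends on how well its probes bind and how close they lie to the 3′ end of the transcript. The ranking is therefore one of probe set signal, and a small gap between 2 genes does not order their transcripts. The floor was set at log2 4. Of 746 probe sets for non-chicken or reporter sequences, 3 (0.402%) reached it on all 3 arrays, and the 99th percentile of that group was log2 3.73. Signal at or above the floor on all 3 control arrays was found for 6818 genes (52.4%), here called above the floor, and 5746 genes (44.2%) lay below it on every array. The share rose with the number of probe sets. Of genes with 1 probe set 38.8% were above the floor, against 75.2% of genes with 4 or more. The reason for this was not tested. A gene below the floor was not detectable with these probes, which does not show that its RNA was absent.

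**Figure D1:**
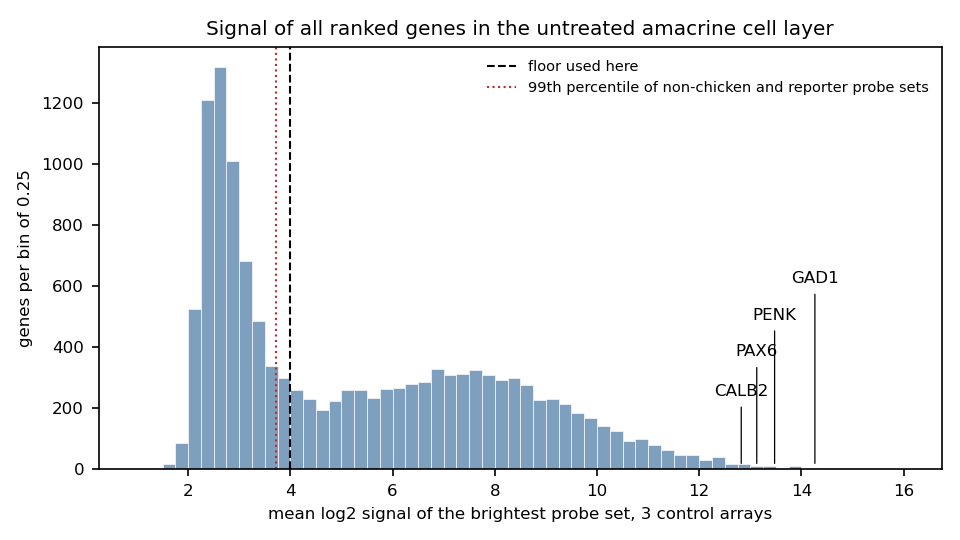
Number of ranked genes (y axis) by mean log2 signal over the 3 control arrays (x axis, bins of 0.25). A narrow peak of genes lies below the floor at log2 4 and a broad one above it; GAD1, PENK, PAX6 and CALB2 lie in the upper tail, between 12.82 and 14.26.

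The 3 control arrays were alike in their deposited values, which the processing brings to a common distribution. The counts of genes at the floor may in part be set by it. The array's 27 hybridisation control probe sets, not ranked here, had means of 12.51, 11.80 and 12.13 on replicates 1, 2 and 3. Between 7020 and 7047 genes reached the floor on each, Pearson's r across genes was 0.983 to 0.984 for the 3 pairs of arrays (genes are not independent replicates), and 139 to 147 genes differed by more than 1 log2 unit between any 2 arrays. Signal was concentrated in few genes: the 40 highest genes held 14.3%, 14.9% and 14.4% of the summed linear signal of all ranked genes on replicates 1, 2 and 3, and the highest gene alone held 0.973%, 1.06% and 0.961%. The list of named genes has gaps at the top, since 15 of the 100 brightest chicken probe sets carried no gene symbol. Of the 10 brightest, 4 carried none, at means of 14.86, 14.64, 14.52 and 14.51. Ranks given here therefore hold among the ranked genes only.

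The 4 genes taken as markers of the layer, chosen with earlier results of these data known, were all high. Which cells gave their signal was not tested. GAD1, which makes the transmitter GABA, stood at 14.17, 14.38 and 14.24 on replicates 1, 2 and 3, the 7th highest of the ranked genes. PENK, the precursor of the enkephalins, stood at 13.41, 13.41 and 13.61 and ranked 25. PAX6, a transcription factor that amacrine cells keep in the mature retina, stood at 13.15, 13.10 and 13.12 and ranked 40. CALB2, the calcium-binding protein calretinin, stood at 12.69, 12.98 and 12.79 and ranked 55, with a second probe set at 10.38. Their SDs were 0.02 to 0.15, so each of the 4 lay far above the floor on every array.

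The highest of the ranked genes was SNAP25, a membrane protein of the complex that fuses synaptic vesicles, at 15.18, 15.39 and 15.22. The array's own control probe sets were not ranked, and at least 1 of them, at the 3′ end of GAPDH, was brighter still at 15.56, 15.81 and 15.68. RTN1 was the next ranked gene at 14.78, 14.75 and 14.84, and encodes a protein of the endoplasmic reticulum found mainly in neurons. The glycolytic enzyme ENO1 stood at 14.34, 14.55 and 14.42, with its other probe set at a mean of 8.02. Over arrays the SDs of the 3 were 0.11, 0.04 and 0.11, but probe sets of 1 gene differed by more than these gaps: the second probe set of SNAP25 stood at 14.50, below RTN1. Below them the order was tight: H3F3B, a histone variant, PNRC1, a nuclear receptor coactivator, YWHAG, a 14-3-3 protein, and GAD1 lay between 14.26 and 14.33, with SDs of 0.07, 0.05, 0.01 and 0.11, and neighbours in that run did not differ beyond their spread. ATP6V0C, the ring-forming subunit of the proton pump that acidifies synaptic vesicles, stood at 14.12 ± 0.06, and GRIA2, the subunit that limits calcium entry through AMPA-type glutamate receptors, at 13.97 ± 0.05.

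Among the 40 highest genes, 4 belonged to synaptic vesicle release: SNAP25, ATP6V0C, CPLX3 at 13.86 ± 0.13 and SYP at 13.28 ± 0.12. CPLX3 encodes a complexin of retinal neurons, and SYP encodes synaptophysin, a protein of the vesicle membrane. Another 4 were glycolytic: ENO1, GAPDH at 13.83 ± 0.21 on its ranked probe set (15.68 ± 0.13 on the 3′ control probe set), the neuronal enolase ENO2 at 13.79 ± 0.28 and PGAM1 at 13.18 ± 0.20. The sodium pump subunit ATP1B3 stood at 13.77 ± 0.13 and CALM2, a calmodulin gene, at 13.79 ± 0.04. These are genes that serve vesicle release, energy supply, ion pumping and calcium signalling.

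Genes of protein synthesis and folding were also among the 40. EIF4A2, an RNA helicase of translation initiation, stood at 13.90 ± 0.19, and EEF1A2, the elongation factor of neurons and muscle, at 13.35 ± 0.17. The ribosomal proteins RPL19, RPS3A and RPL38 stood at 13.79 ± 0.12, 13.75 ± 0.14 and 13.30 ± 0.21, and the chaperone HSP90AA1 at 13.84 ± 0.18. Others of the 40 were the membrane protein gene ITM2B at 13.73 ± 0.01, RTN4, which encodes the neurite growth inhibitor Nogo, at 13.68 ± 0.13, CADM1, a synaptic adhesion molecule, at 13.30 ± 0.06, and CASK, a synaptic scaffold kinase, at 13.28 ± 0.17. The transcription factors in the group were PAX6, MXI1 at 13.38 ± 0.03 and BHLHE22 at 13.33 ± 0.08, a bHLH factor known in mouse for its part in amacrine and bipolar subtypes.

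The glial enzyme GLUL, glutamine synthetase of Müller cells, ranked 24 at 13.33, 13.29 and 14.06. Replicate 3 was the high one, and its SD of 0.43 was the largest among the 40. Its second probe set stood at 12.68, 12.10 and 12.08, with replicate 3 lowest, so the 2 probe sets did not show the same difference between arrays. RPL38 differed the other way, at 13.53, 13.25 and 13.13, with replicate 1 high. Replicate 2 gave the highest of the 3 values for 27 of the 40 genes, ENO2 at 13.61, 14.12 and 13.65 among them, and replicate 1 gave the lowest, or tied for it, for 28. Over all genes above the floor the mean shift from the mean of the 3 arrays was -0.05 on replicate 1, 0.03 on replicate 2 and 0.02 on replicate 3.

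**Figure D2:**
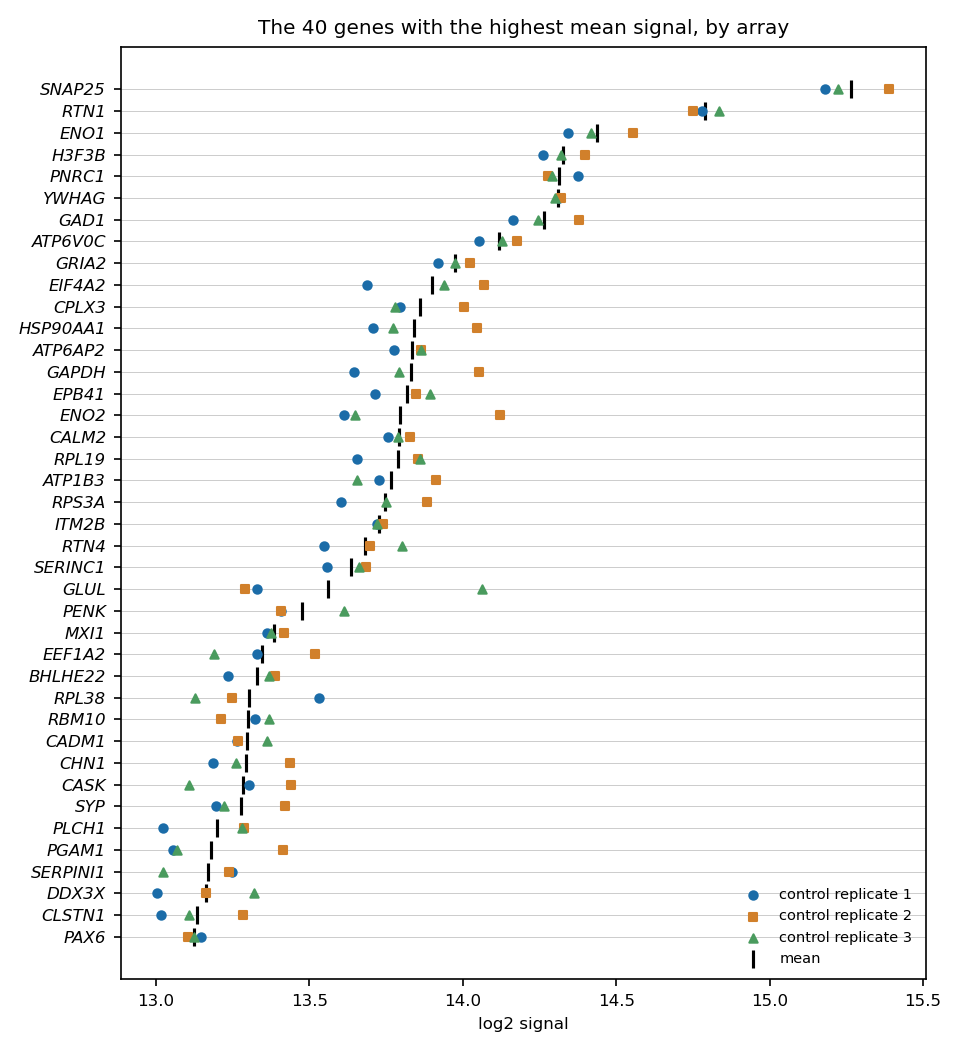
The 40 genes with the highest mean signal, from the highest at the top (y axis), with the log2 signal (x axis) on each control array as a symbol and the mean as a bar. SNAP25 lies apart at 15.26, most genes lie between 13.1 and 14.4, and GLUL has the widest spread.

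Sorted into 40 families, the genes of the layer ran from a median of 12.41 down to 2.65, against 4.57 over all genes. Beside the counts that follow, 52.4% of all genes were above the floor and the highest 1301 genes (10.0% by construction, log2 9.37 or above) are called the top of the ranking. Of the 40 highest genes, 25 belonged to at least 1 of the families, and of the 100 highest, 53 did.

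Glycolysis was the highest family. Of its 15 genes with a probe set, 14 were above the floor and 12 at the top of the ranking, with a median of 12.41, and together they held 2.60% of the summed signal. GPI, the isomerase of the second step of the pathway, stood at 12.97, 12.96 and 12.94. Probe sets under the symbols PGK2 and PKLR, to which the listed names PGK1 and PKM lead as synonyms, stood at 12.65 ± 0.12 and 12.63 ± 0.14. By contrast, the citric acid cycle list had 10 of 17 genes above the floor and a median of 5.92. Its highest member, MDH1, stood at 11.64 ± 0.08 but is the malate dehydrogenase of the cytosol. The next member, FH, stood at 8.85 ± 0.11. The respiratory chain and ATP synthase lay between, with 62 of 66 genes above the floor and a median of 8.65, led by the ATP synthase subunits ATP5I at 12.26 ± 0.10 and ATP5G3 at 11.06 ± 0.24.

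Ribosomal proteins of the cytosol came second, with 64 of 67 above the floor, 49 at the top of the ranking and a median of 10.25. They held 3.84% of the summed signal. The mean shift of those above the floor from their gene means was -0.07 on replicate 1, 0.19 on replicate 2 and -0.12 on replicate 3. Mitochondrial ribosomal proteins had 59 of 67 above the floor and a median of 6.96, with MRPS16 highest at 10.98 ± 0.09. Translation factors had 48 of 57 above the floor and a median of 7.93, and proteasome subunits 35 of 36 and 8.47, led by PSMA4 at 10.81 ± 0.22.

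The V-type proton pump and synaptic vesicle release were high as well. The pump, which acidifies synaptic vesicles and other compartments of the cell, had 17 of 20 genes above the floor and a median of 10.09. After ATP6V0C came ATP6AP2, an accessory subunit, at 13.77, 13.86 and 13.86. Synaptic vesicle release had 43 of 54 above the floor, 25 at the top of the ranking, a median of 8.78 and 3.66% of the summed signal. ATP6V0C is counted in both lists. With the median over the probe sets of each gene, the medians were 6.87 for the proton pump and 6.16 for vesicle release. The pumps for sodium, potassium and calcium had 9 of 13 above the floor and a median of 8.52, with the calcium pumps ATP2B2 of the plasma membrane and ATP2A2 of the endoplasmic reticulum at 12.80 ± 0.12 and 12.42 ± 0.09. The median of the pumps rested on the choice of probe set: it was 2.87, below the floor, with the median over the probe sets of each gene and 3.08 without probe sets that can match several transcripts.

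Proteins that handle RNA, chromatin and other proteins had most members above the floor. Splicing factors and their RNA-binding relatives had 104 of 133 genes above it and a median of 7.61, with RBM10 at 13.30 ± 0.08, the RNA helicase DDX3X at 13.16 ± 0.16, the splicing factor SRSF1 at 12.96 ± 0.15 and the cold-induced RBM3 at 12.59, 12.78 and 13.29. Histones and chromatin proteins had 34 of 50 above it and a median of 7.84, with HMGN5 at 12.17 ± 0.10 after H3F3B. Heat shock proteins and chaperonins had 57 of 82 above it and a median of 7.26, with HSPA8, the constitutive form of HSP70, at 13.10, 12.87 and 13.02 and HSPA9, its mitochondrial relative, at 11.32 ± 0.13. Ubiquitin conjugation had 118 of 202 above it (58.4%), close to the 52.4% of all genes. Its median was 5.38, and it was led by the conjugating enzymes UBE2H at 11.51 ± 0.07 and UBE2N at 11.35 ± 0.26.

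Genes of secretion and selenoproteins had 56 of 63 above the floor and a median of 7.76, with SEC24B, a coat protein of vesicles that leave the endoplasmic reticulum, at 12.26 ± 0.20. Small GTPases had 53 of 86 above it and a median of 6.11, with ARF1 and RAB5A, which serve membrane traffic, at 11.59 ± 0.06 and 11.33 ± 0.03. Cholesterol synthesis had 15 of 19 and a median of 7.33, led by MSMO1 at 11.05 ± 0.13 and FDFT1, which makes squalene, at 10.38 ± 0.03. Antioxidant and redox enzymes had 36 of 52 and a median of 6.87, with thioredoxin (TXN) at 12.34 ± 0.08 and the ferritin chain FTH1 at 12.12 ± 0.24.

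The cytoskeleton was represented unevenly. Tubulins and actins had 24 of 35 genes above the floor and a median of 6.13, but 11 at the top of the ranking, among them ACTG1 at 12.07, 12.71 and 12.37 and TUBB2B at 11.91 ± 0.10. Kinesins and dyneins had 28 of 52 above it and a median of 4.23, with the dynein light chain DYNLL2 at 12.72 ± 0.25 and the axonal motors KIF1B and KIF5C at 11.46 ± 0.10 and 11.38 ± 0.07. Intermediate filaments had 8 of 27 and a median of 3.09, vimentin being the only member at the top of the ranking. Crystallins, abundant proteins of the lens, had 6 of 18 above the floor and none at the top; CRYM, which binds thyroid hormone, was the highest at 8.57 ± 0.22.

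Signalling proteins spread over the whole range. Protein phosphatases and 14-3-3 proteins had 40 of 58 genes above the floor and a median of 7.99, with YWHAH at 12.63 ± 0.12 and PPP3CA, the catalytic subunit of calcineurin, at 12.62 ± 0.17. Neuronal calcium-binding proteins had 19 of 38 above it and a median of 4.19, although CALM2, the calcium sensor VSNL1 at 12.88 ± 0.06 and CALB2 were among the 100 highest genes. The vesicle calcium sensor SYT1 stood at 12.63, 11.78 and 12.32, low on replicate 2. G protein subunits and their RGS regulators had 28 of 48 above it and a median of 5.18, with GNB5 at 11.72 ± 0.24 and GNAS, which stimulates adenylyl cyclase, at 11.03 ± 0.06.

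Receptor and channel families differed in their medians. Glutamate receptors had 13 of 19 genes above the floor and a median of 6.65. After GRIA2 came GRIA3, another AMPA-type subunit, at 11.55, 11.50 and 11.74, and the NMDA-type subunit GRIN1 at 10.70, 10.24 and 10.44. Receptors for GABA and glycine had 7 of 22 above the floor and a median of 2.96. The glycine receptor subunit GLRA3 stood at 11.46, 11.39 and 11.58, gephyrin (GPHN), the scaffold that anchors these receptors at synapses, at 10.72 ± 0.11, and the GABA-B receptor subunit GABBR2 at 9.43 ± 0.13. Acetylcholine receptors had 7 of 19 above the floor, led by the nicotinic subunits CHRNA8 at 11.20 ± 0.07 and CHRNA6 at 9.86 ± 0.07. Receptors for monoamines and peptides were the lowest family, with 12 of 54 above the floor and a median of 2.65, and the dopamine receptors DRD5 at 9.47 ± 0.03 and DRD1 at 8.07 ± 0.46 were its highest members. Voltage-gated ion channels had 36 of 98 above the floor and a median of 2.99, with the potassium channel KCNC1 highest at 11.98 ± 0.14, followed by SCN3B, a sodium channel beta subunit, at 10.47 ± 0.43 and CACNA1D, an L-type calcium channel, at 10.45 ± 0.08. Gap junction genes had 6 of 16 above the floor. Among them GJD2, the connexin of electrical synapses between neurons, stood at 7.56 ± 0.08.

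Adhesion molecules of neurons had 48 of 72 genes above the floor and a median of 6.48, with SLITRK4 at 12.35 ± 0.03, the protocadherin PCDH17 at 12.27 ± 0.05 and the neurexin NRXN3 at 12.07 ± 0.04 after CADM1. Of the extracellular matrix genes, 39 of 93 were above the floor and the median was 3.31. RELN, the secreted protein reelin, stood far above the rest at 12.17, 12.23 and 12.29, and the next, COL13A1, at 9.76 ± 0.16.

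Genes of growth and patterning pathways, receptors and intracellular members included, were above the floor in at most 48.3% of a list, against 52.4% of all genes. WNT ligands, receptors and antagonists had 20 of 50 genes above it and a median of 3.85, with beta-catenin (CTNNB1), which also serves cell adhesion, at 12.90 ± 0.02, the receptor FZD1 at 10.16 ± 0.11 and the ligand WNT3A at 9.67 ± 0.13. The BMP, TGF-beta and activin genes had 21 of 45 above it, with FSTL4 at 10.90 ± 0.12 and the activin receptor ACVR2A at 10.24 ± 0.13. The genes of FGF, insulin, IGF and neurotrophins had 29 of 60, with the growth factor PDGFA at 10.60 ± 0.07 and the insulin receptor substrate IRS2 at 10.29 ± 0.22. Retinoic acid and retinoid handling had 14 of 30, led by the retinol dehydrogenases RDH11 and RDH10 at 9.39 ± 0.25 and 9.03 ± 0.10, with ALDH1A3, which makes retinoic acid, at 8.99 ± 0.10.

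Regulators of transcription varied widely within their families. The list of homeobox, SOX, bHLH and forkhead factors had 46 of 113 genes above the floor and a median of 3.30. BHLHE22 and PAX6 were the highest on this list, followed by LMO4 at 11.44 ± 0.16, BHLHE41 at 11.22 ± 0.13 and FOXO3 at 11.06 ± 0.15. The list was drawn by gene symbol. It takes in LMO4, a LIM-only protein, and leaves out MXI1 at 13.38, so the order holds for the listed genes only. Immediate early genes, which neurons switch on with activity, had 10 of 19 above the floor. NR4A2 stood at 10.22, 9.85 and 9.85, JUN at 9.75, 9.87 and 9.72 and EGR1 at 8.26, 8.94 and 8.21. EGR1 was higher on replicate 2 than on the other arrays. Clock genes had 14 of 21 above the floor and a median of 6.76, led by NR1D2 at 11.97 ± 0.17, BHLHE41 at 11.22 ± 0.13, CRY1 at 11.06 ± 0.20 and CLOCK at 10.84 ± 0.14.

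**Figure D3:**
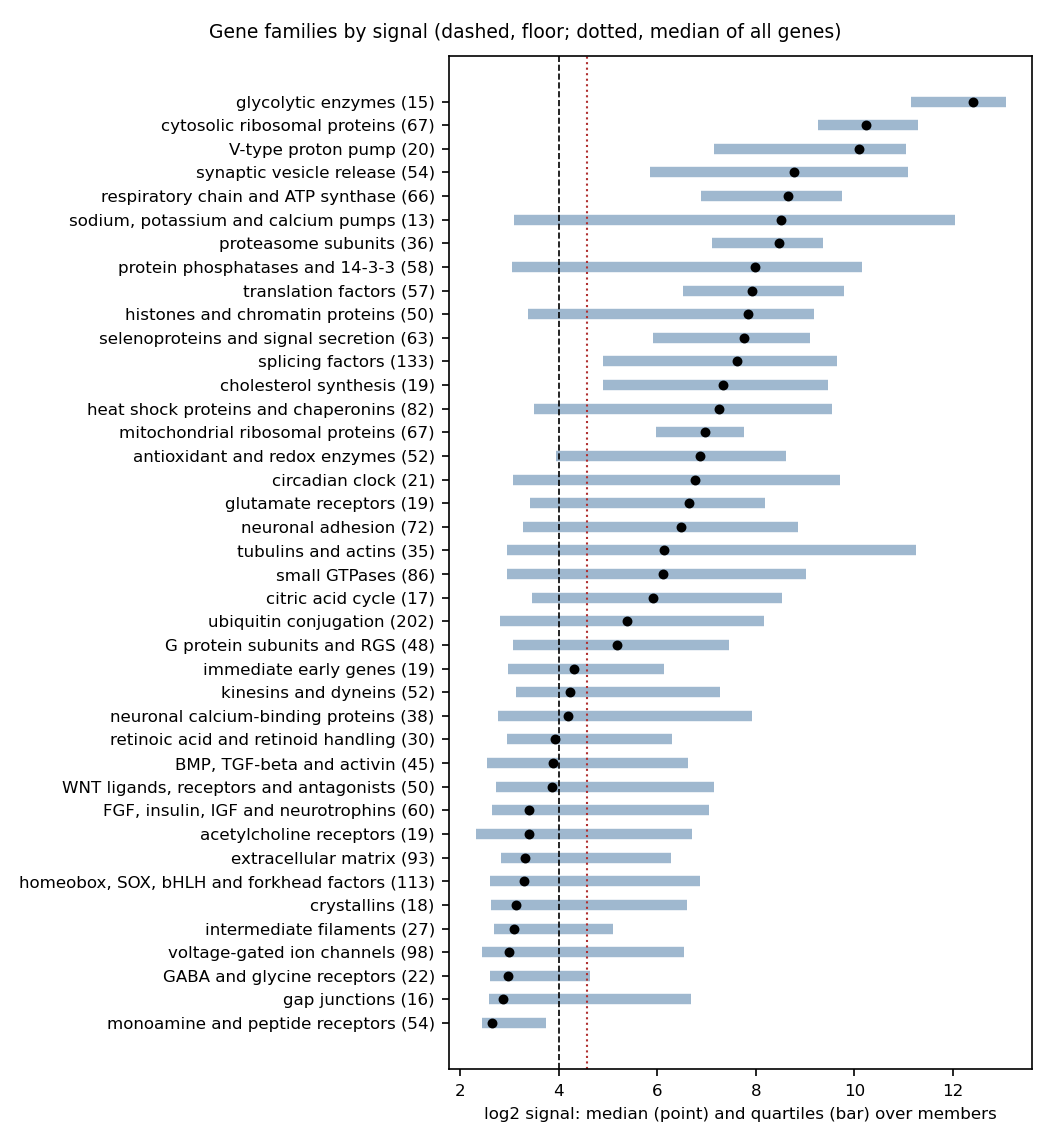
The 40 families (y axis, number of genes with a probe set in brackets) ordered by median log2 signal on the control arrays (x axis); points are medians over members and bars span the quartiles. The medians run from 12.41 for glycolytic enzymes to 2.65 for monoamine and peptide receptors, and many families span the floor.

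Amacrine markers were set out in 6 lists. The GABA and glycine list was the highest, with 6 of 7 genes above the floor and a median of 11.38. After GAD1 came SLC6A9, the glycine transporter GLYT1, at 12.50, 12.70 and 12.28, SLC32A1, which loads GABA and glycine into vesicles, at 12.30, 12.58 and 12.39, and GAD2, the other enzyme of GABA synthesis, at 11.31, 11.48 and 11.35. The other glycine transporter listed, SLC6A5, lay below the floor at 3.11 ± 0.14 on the brightest of its 4 probe sets. The second probe sets of GAD2 and SLC32A1 had means below the floor, at 2.76 and 3.27. On their brightest probe sets, the genes of GABA synthesis and vesicle loading thus had high signal on every array. Of the glycine transporters, SLC6A9 was high and SLC6A5 was at the floor.

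The list of calcium-binding and structural proteins had 13 of 17 genes above the floor and a median of 8.42. STMN2, a neuronal tubulin-binding protein, stood at 11.41 ± 0.06 and STX1A, a partner of SNAP25, at 10.76 ± 0.21. GAP43, CNTN2 and SYT2 lay below the floor at 2.25, 2.50 and 2.39.

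Neuropeptides and the proteins that process them had 16 of 25 genes above the floor and a median of 7.35. Below PENK came SCG2, a secretogranin of dense-core vesicles, at 12.49, 12.61 and 12.27, NTS, the precursor of neurotensin, at 10.97, 10.68 and 11.12, and PCSK2, a convertase that cuts prohormones, at 10.56, 11.09 and 10.84. SCG5, the chaperone of that convertase, stood at 9.96, 9.97 and 9.95. GAL, GRP, NMU, TRH, CRH, UCN3 and PTHLH lay between 2.14 and 3.13, below the floor, as did the second convertase PCSK1 at 3.01 and CHGB at 3.79. SST1, a symbol reached from the listed name SST as a synonym, stood at 3.00 ± 0.18. The median SD of the peptide genes above the floor was 0.28, against 0.165 over all genes above the floor. Chosen after their values were seen, GCG, the glucagon precursor, stood at 9.46, 9.73 and 10.49, VIP, which makes vasoactive intestinal peptide, at 10.16, 9.61 and 9.36, TAC1, the substance P precursor, at 8.80, 9.08 and 9.49, NPY at 7.74, 7.55 and 6.77, and CCK, which makes cholecystokinin, at 6.56, 5.02 and 6.65. GCG and TAC1 were highest on replicate 3, VIP and NPY on replicate 1, and CCK was low on replicate 2.

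The acetylcholine list had 6 of 9 genes above the floor and a median of 6.87. ACHE, which breaks acetylcholine down, stood at 10.67, 10.18 and 10.30, ISL1, a factor of starburst amacrine cells that is also in the ganglion, bipolar and horizontal lists, at 9.87, 9.41 and 9.73, and SLC18A3, which loads acetylcholine into vesicles, at 8.31, 8.11 and 8.31. CHAT, the enzyme that makes acetylcholine, stood at 2.73 on replicate 1, below the floor, and at 6.50 and 6.71 on the other arrays. Its other probe sets had means of 3.13, 2.40 and 1.91, all below the floor. The choline transporter SLC5A7 and SOX2 lay below the floor at 2.23 and 2.67. In the dopamine list, with a median of 2.70, 1 of 6 genes was above the floor, the monoamine transporter SLC18A2 at 6.80 ± 0.08. TH, the rate-limiting enzyme of dopamine synthesis, stood at 4.37, 3.83 and 3.87, at the edge of the floor, and DDC, DBH, GCH1 and SLC6A2 lay between 2.46 and 2.76.

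Of the amacrine transcription factors, 9 of 17 were above the floor (52.9%), close to the 52.4% of all genes, with a median of 5.23. LMO4 stood at 11.44 ± 0.16, TFAP2B at 10.22 ± 0.06 and NR4A2 at 9.98 ± 0.21. TFAP2C, NEUROD1, NEUROD4, NEUROD6, SATB1, EBF2 and MEIS1 lay below the floor on all arrays, between 2.32 and 3.46. Of the AP-2 factors, TFAP2B was above the floor, as was TFAP2A at 6.88 ± 0.16 (chosen after its value was seen), and TFAP2C was not.

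Markers of Müller glia were present beside those of amacrine cells. Of 26 genes, 17 were above the floor (65.4%), with a median of 6.50. GLUL was followed by VIM, the intermediate filament vimentin, at 12.60, 12.75 and 12.83, SLC1A3, the glial glutamate transporter, at 11.51, 11.96 and 11.86, RLBP1, a retinaldehyde-binding protein, at 10.45, 10.66 and 10.58, and CA2, a carbonic anhydrase, at 10.04, 9.74 and 10.58. The summed linear signal of the list was 24865, 26498 and 34377 on replicates 1, 2 and 3, highest on replicate 3, where the brightest probe set of GLUL was highest. Without GLUL it was 14561, 16473 and 17286. GFAP, which reactive glia make, AQP4, S100B, HES5, CD44 and CYP1B1 lay below the floor, between 2.47 and 3.17. In captured tissue, fewer cells of a type and less RNA per cell cannot be told apart.

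Bipolar cell markers had 9 of 15 genes above the floor and a median of 5.27. OTX2, a homeobox factor of bipolar cells and photoreceptors, stood at 10.76, 10.75 and 11.17, BHLHE23 at 8.70 ± 0.10, the kinase PRKCA at 7.91 ± 0.05 and the bipolar homeobox factor VSX1 at 7.87 ± 0.22. NYX, LRIT3, RGS11, CABP2, IRX5 and SEBOX lay below the floor. Ganglion cell markers had 13 of 19 above the floor and a median of 5.78. Of these 13, STMN2, EBF3 and ISL1 were also on amacrine lists. NSG1 stood at 10.22 ± 0.08, the neurofilament NEFM at 9.37, 8.48 and 9.14, and the nicotinic subunit CHRNB3 at 8.98 ± 0.27. RBPMS2 stood at 7.62, NEFH at 6.60 and RBPMS at 5.80. THY1, SNCG, NEFL and TUBB3 were above the floor at 5.78, 5.64, 5.35 and 4.41. The ganglion cell factors POU4F2 and ISL2 had 1 probe set each and lay below the floor at 1.54 and 1.92. SLC17A6, a vesicular glutamate transporter of ganglion cells, lay at 2.42, and EOMES, GAP43 and NRN1 lay between 2.25 and 2.89.

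Horizontal cell markers had 4 of 10 genes above the floor. PROX1, a factor that horizontal cells share with some amacrine and bipolar cells, stood at 10.74, 10.76 and 10.84. LHX1 and LHX5 lay below the floor at 3.26 and 2.35, as did GJA10, the connexin of horizontal cells, at 2.61.

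Photoreceptor markers were nearly all at the floor: 4 of 31 genes were above it (12.9%), with a median of 2.73. These 4 were GNB1 at 10.59 ± 0.06, a G protein subunit that many cells use, GNB3 at 8.54 ± 0.21, which bipolar cells also use, SLC24A2 at 6.36 ± 0.15 and PDE6G at 5.87 ± 0.41. The transducins GNAT1 and GNAT2, the arrestins SAG and ARR3, PDE6B, PDE6C, RBP3 and the channels CNGA1, CNGB1 and CNGA3 lay between 2.45 and 3.07. OPN1LW, the red cone opsin, stood at 2.53, 3.12 and 4.49, above the floor on replicate 3 alone.

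For the other tissues around the layer, 5 of 17 genes of the retinal pigment epithelium were above the floor. RLBP1, which Müller glia share, was the highest of them, followed by RRH, an opsin of the pigment epithelium, at 7.38, 7.69 and 8.40, MITF, a factor that pigment cells use, at 7.00 ± 0.10, the pigment gene OCA2 at 4.56 ± 0.23 and SERPINF1 at 4.09 ± 0.03. The pigment genes TYR, TYRP1, DCT, PMEL and SLC45A2 lay between 1.77 and 2.94. Of 22 genes of endothelium and pericytes 4 were above the floor, KDR, the receptor for VEGF, at 7.38 ± 0.38 being the highest, while CDH5, TEK, ENG, ESAM and VWF lay between 2.28 and 2.78. EGFL7 stood at 2.73 on replicate 1 and at 8.83 and 7.78 on the other arrays. Of 21 genes of microglia and leukocytes 3 were above it: B2M at 7.40 ± 0.21, CD74 at 6.92 ± 0.08 and the microglial receptor CSF1R at 5.20 ± 0.07. C1QA, C1QB, PTPRC, SPI1 and CX3CR1 lay between 1.96 and 2.89.

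Of 13 red blood cell genes 2 were above the floor. One was EPB41, a protein of the membrane skeleton that many cells also make, at 13.71, 13.85 and 13.89, and the other CA13 at 5.15 ± 0.70. The globins HBA1, HBAD, HBBR, HBZ and HBE lay between 2.31 and 2.57, and the anion exchanger SLC4A1 at 2.53. Of 8 oligodendrocyte genes 3 were above the floor. MBP, myelin basic protein, stood at 11.80, 11.30 and 11.63, OLIG2 at 6.20 ± 0.11 and CLDN11 at 5.93 ± 0.40, whereas CNP, MOG, SOX10, GPR17 and PDGFRA lay between 2.16 and 3.14. The 3 probe sets of MBP were all above the floor, at means of 11.58, 8.34 and 5.45. Those of EPB41 had means of 13.82 and 10.94 above the floor and 3.90 and 2.95 below it. Which cells gave the signal of EPB41 or MBP was not tested.

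**Figure D4:**
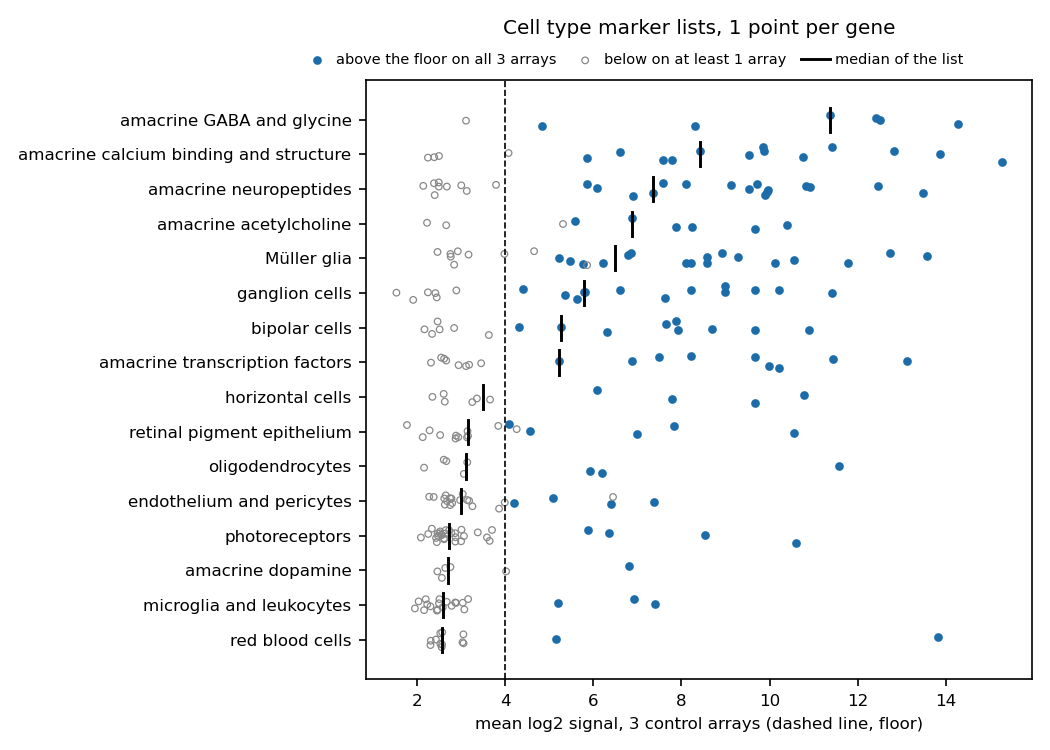
Mean log2 signal on the control arrays (x axis) of each gene of the 16 marker lists (y axis, ordered by median); filled points are above the floor on all 3 arrays, open points below it on at least 1, and bars mark the medians. The GABA and glycine list has the highest median at 11.38. The photoreceptor, amacrine dopamine, microglia and red blood cell lists have the lowest, at 2.73, 2.70, 2.59 and 2.57.

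The spread between the 3 control arrays was small for most genes. The median SD of the 6818 genes above the floor was 0.165, and 6459 of them (94.7%) had an SD under 0.5. On the lens arrays, each group taken alone, the same genes had a median SD of 0.243 (minus lens) and 0.169 (plus lens). These genes were chosen by their signal on the control arrays. Genes that fell below the floor on a control array were left out, and genes that did so only on a lens array were kept. The SDs of control and lens arrays, and the counts of SDs over 1, are therefore not on equal terms. The median SD was 0.129 for the 151 genes at log2 12 or above and 0.173 for genes between log2 4 and 6. An SD over 1 was found for 34 of 6818 genes (0.499%) on the control arrays. Of these 34, 11 also had an SD over 1 on the minus lens arrays and 7 on the plus lens arrays, where 111 and 32 of the 6818 genes did. The array that stood alone was replicate 1 for 10 of them, replicate 2 for 13 and replicate 3 for 11, and it lay above the other arrays for 5, 6 and 5 of these and below them for 5, 7 and 6. No single array stood alone for most of the 34 genes.

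Among the genes above the floor on all 3 arrays, WIF1, a secreted inhibitor of WNT signalling, had the largest SD, 2.47, at 5.17, 9.79 and 5.96. Replicate 2 was the high one. Its SD was also large within the minus lens arrays at 1.52 and within the plus lens arrays at 1.74. LOC770705, an unnamed gene, was next, at 13.02, 8.65 and 11.79, an SD of 2.25, with replicate 2 low, and its second probe set lay below the floor. Within the minus lens arrays its SD was 0.316 and within the plus lens arrays 0.184.

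STK4, a kinase of the Hippo pathway, stood at 10.22, 6.90 and 9.39, again with replicate 2 low, while its second probe set stood at 6.62, 7.04 and 7.01 with an SD of 0.23. PODXL, a sialomucin of cell surfaces, stood at 7.25, 5.09 and 7.95 on its brightest probe set, and its second probe set had an SD of 0.21. For MOCOS (8.80, 7.79 and 5.51) and PFDN1 (7.08, 6.92 and 4.50) replicate 3 was low, and the second probe sets had SDs of 0.03 and 0.03. The second probe sets of STK4, PODXL, MOCOS and PFDN1, all above the floor, did not show the differences between arrays that the brightest ones did. COL9A3, a collagen chain, stood at 7.02, 5.68 and 7.93, and its second probe set at 6.58, 6.03 and 7.44 followed the same order. SPHKAP stood at 8.73, 7.55 and 6.46 on its brightest probe set and at 7.37, 7.24 and 6.99 on its second. The order was the same there, but the second had an SD of only 0.19. For BG8, at 6.08, 7.84 and 8.55, the second probe set stood at 8.10, 9.07 and 2.65 and did not follow it. The 15 genes with the largest SD were taken from those with a mean of log2 6 or above, and below that mean another 9 had an SD over 1. The rest of the 15 were SYNPO2L, CCDC32, ADAMTS9, ARHGAP33L2, RTKN2 and CHRDL1, with SDs of 1.13 to 1.19.

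Some genes crossed the floor between arrays, and those named here were chosen after their values were seen. Beside CHAT and EGFL7, both low on replicate 1, RGR, an opsin of Müller glia and pigment epithelium, stood at 6.90, 3.25 and 7.43, and VIPR2, a receptor for vasoactive intestinal peptide, at 7.72, 3.20 and 7.88, both low on replicate 2. The SDs of EGFL7 (3.26) and VIPR2 (2.66) were larger than that of WIF1. Over all genes, 212 reached the floor on 2 of the 3 arrays and 232 on 1.

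At the other end, the 10 genes with the smallest SD among those at log2 10 or above were RAB1B, FAIM2, NARS, PSMD14, NUCKS1, ZNF207, NISCH, YWHAG, SLC30A5 and ITM2B, with SDs of at most 0.012. RAB1B stood at 10.31 and FAIM2 at 11.03 on every array. Their deposited values were identical, as they were for 19 genes above the floor on all 3 arrays and for 383 more on 2 of the arrays. An SD of 0 therefore describes the summarised values and not the error of a measurement.

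**Figure D5:**
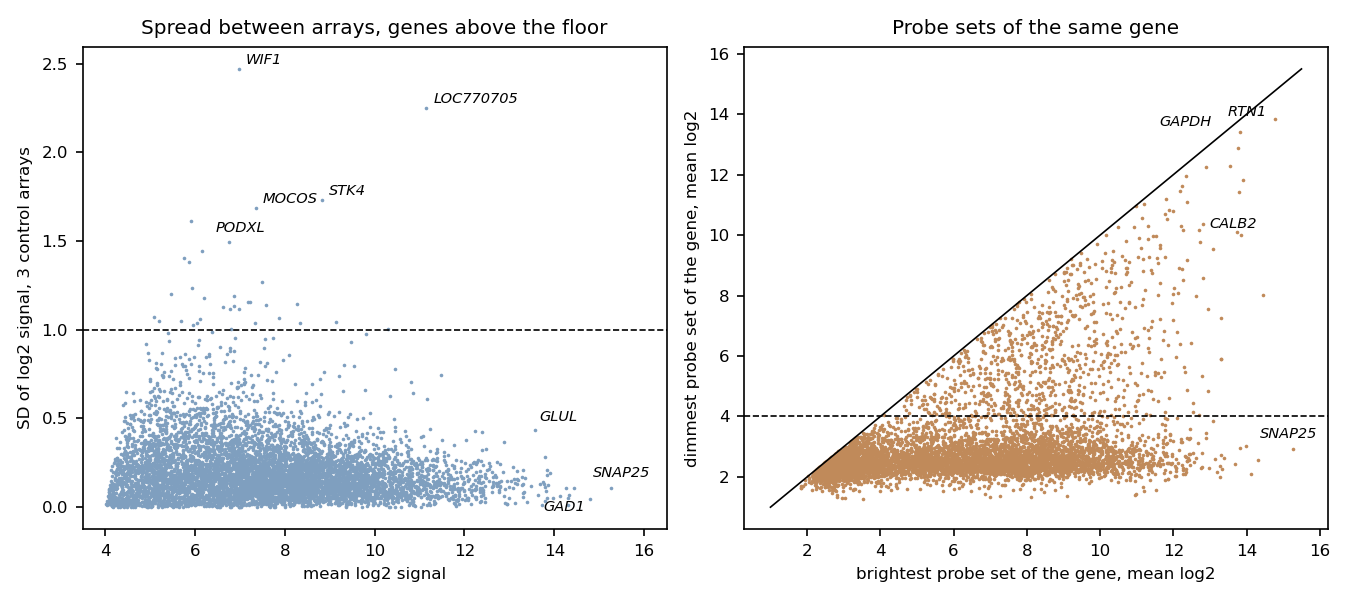
Left, the SD over the 3 control arrays (y axis, log2 units) against mean log2 signal (x axis) for the 6818 genes above the floor, with a line at an SD of 1; right, the dimmest probe set of a gene (y axis) against its brightest (x axis) in mean log2 signal for the 7334 genes with more than 1, with a line of equality and the floor dashed. WIF1 and LOC770705 have the largest SDs, and many genes with a bright probe set have another below the floor.

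Probe sets of the same gene differed far more than arrays did. For the 7334 genes with more than 1 probe set the median range between the brightest and the dimmest was 2.45 log2 units, and 1.43 with values below the floor set to the floor. For the 629 of them at log2 10 or above, the dimmest probe set lay below the floor in 65.8%, and the median range with such values set to the floor was 6.42. The median SD over arrays in the same 629 genes was 0.134. A range is not the same measure as an SD, and it grows with the number of probe sets. Between 2 arrays the median absolute difference over the genes above the floor was 0.181 to 0.188. In the 872 genes whose probe sets were all above the floor the median range was 2.21. SNAP25 had 7 probe sets, at means of 15.26, 14.50, 12.18, 9.97, 7.48, 6.98 and 2.93. ATP6V0C had 1 probe set at 14.12 and the other 5 between 2.09 and 2.80, and PNRC1 had 2 at 14.31 and 14.08 and 1 at 2.57. CASK, RTN4 and BHLHE22 had their brightest probe sets at 13.28, 13.68 and 13.33 and their dimmest below the floor.

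The array's own 3′ and 5′ control probe sets gave values along single transcripts. For ACTB, beta-actin, the 3′ probe set stood at 11.64, 11.71 and 11.76 and the 5′ one lay below the floor on every array. For GAPDH the 3′ probe set was higher than the 5′ one by 4.15 ± 0.17 and for the elongation factor EEF1A by 5.83 ± 0.31. Whether the distance of a probe set from the 3′ end sets the place of a given gene was not tested.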

How the data were processed

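The values the authors deposited are intensities, 1 for each probe set on each array, read here as linear from their range. GCRMA is named per the submitters' processing notes, without a version. This method adjusts background by probe composition, brings arrays to a common distribution and leaves dim probe sets within a narrow range. Log2 was taken with no pseudocount in Python 3.11.15 with pandas 2.3.3 and numpy 2.4.6. Of 38535 probe sets, 37693 were chicken probe sets, 746 were of non-chicken or reporter sequences and 96 were array controls. Of the chicken probe sets 27166 had 1 symbol in the platform annotation, 177 had several and 10350 none, and only the first kind was used. Each of the 13008 genes was read from its brightest probe set. Of the probe sets with 1 symbol, 26851 had their Entrez number in the RefSeq table of GRCg7b, which changed 0 symbols.

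No test was run, since 1 group is described. The 16 marker lists and 40 families, and the genes ranked, were chosen with earlier results of these data known. The rule for naming genes took PENK, GAD1, PAX6 and CALB2, the 40 highest genes, up to 5 highest members of each list, marker list members at the floor, the 15 largest and 10 smallest SDs, and the 6 genes whose probe sets lay farthest apart. Symbols reached only as synonyms were not counted in the lists. A symbol that a list also names itself was counted, which in the glycolytic list held for PGK2 or PKLR or both. The alternatives were other floors, the median over the probe sets of a gene, leaving out probe sets that can match several transcripts, and leaving out each array. Precision is limited by the number of arrays. The code was tested on simulated data.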

Additional observations from a re-analysis of the deposited data

How the results depend on the processing

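No paired analysis was possible because only the control group is described and no result comes from a test. With the median over the probe sets of a gene in place of the brightest, 4935 genes were above the floor, 53 of the 100 highest genes were shared, and 38 of 40 family medians moved by more than their spread between arrays, by -1.14 at the median and -5.65 for the sodium, potassium and calcium pumps. They were 9.36 for cytosolic ribosomal proteins, 6.87 for the respiratory chain, 11.83 for glycolysis, 6.16 for synaptic vesicle release and 6.87 for the V-type proton pump, whose place among the 5 highest families it kept; 3 of those 5 were shared. Without probe sets that can match several transcripts, 77 of the 100 highest genes were shared and 30 family medians moved, by -5.44 for the same pumps, and the medians were 8.01 for the respiratory chain, 11.92 for glycolysis, 8.39 for vesicle release and 8.68 for the proton pump, and the median range between probe sets of a gene was 2.17. It was 2.21 where all probe sets were above the floor and 1.43 with values below the floor set to it, an alternative chosen after seeing the data. Floors of log2 3 to 6 left 8530 to 4878 genes above them. With a floor of log2 3, the markers above it were 2 for dopamine, 7 for horizontal cells, 7 for photoreceptors, 9 for pigment epithelium, 5 for microglia and 9 for endothelium. With a floor of log2 5 they were 3 for pigment epithelium and 1 for red blood cells. With a floor of log2 6 they were 8 for ganglion cells, 3 for pigment epithelium, 2 for endothelium and 1 for red blood cells. Leaving out 1 array at a time kept 95 to 96 of the 100 highest genes and left 6877 to 6908 genes above the floor, and without replicate 2 the sodium, potassium and calcium pumps took the place of the respiratory chain among the 5 highest families.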
